A study of Homo sapiens with 4 samples.

Results

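The genes described here break down heme, store the iron it releases and carry heme or iron across membranes. They are 10 genes chosen by name out of the 57820 in the deposited table: HMOX1, HMOX2, BLVRA, BLVRB, FTL, FTH1, SLC48A1, FECH, TFRC and SLC40A1. All 10 had a row and all 10 averaged at least 1 FPKM, a read density corrected for transcript length and for library depth, which was the minimum for testing. The cells were A549, a cell line from a human lung adenocarcinoma in which, per the series title, the stress-response factor NRF2 is active. The experiment asked how loss of CEBPB, a transcription factor of the C/EBP family, changes the transcripts of these cells. Of 4 libraries of total RNA, 2 were from cells given control siRNA (controls 1 and 2), 1 from cells given CEBPB siRNA-1 and 1 from cells given CEBPB siRNA-2. Fresh medium was added 24 h after transfection and RNA was taken 24 h later, so each value is a single time after a partial and transient knockdown in 1 cell line. The labels do not say whether the controls came from separate cultures, so p-values reflect no more than the variation among these 4 libraries, and that variation may be technical.

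Heme oxygenase opens the heme ring and releases biliverdin, carbon monoxide and ferrous iron, and biliverdin reductase turns biliverdin into bilirubin. Free iron is reactive and is held inside ferritin, a shell of heavy (FTH1) and light (FTL) chains, or leaves the cell through ferroportin (SLC40A1). HMOX1 and both ferritin chains are textbook targets of NRF2, and their genes are repressed by the heme-sensing factor BACH1. Ferritin and transferrin receptor are also controlled after transcription by iron regulatory proteins, which RNA levels show only in part.

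Between 13752 and 14325 genes per library reached 1 FPKM. The authors' mean normalized counts summed to 8341083. CEBPB was at 78.7 and 80.9 FPKM in control cells, 12.9 under siRNA-1 and 10.97 under siRNA-2, so the target was lower in both siRNA libraries (log2 change -2.65 ± 0.17, limma adjusted p = 0.0167). Mitochondrially encoded genes took 17.5% and 18.2% of each total in control cells, 16.9% under siRNA-1 and 14.4% under siRNA-2. Of 10 lung epithelial markers, 6 averaged at least 1 FPKM; NKX2-1 and SFTPB were listed at 0 in every library. The 10 summed to 3613 and 5074 FPKM in control cells, 1838 under siRNA-1 and 2859 under siRNA-2, almost all of it the keratins KRT8 and KRT18. Of 9 erythroid markers, EPOR alone averaged at least 1 FPKM, and HBB, HBG1, SLC4A1 and ALAS2 were listed at 0 in every library. Of 7 macrophage markers, CD14 and CD68 averaged at least 1 FPKM, while PTPRC, LYZ and CSF1R were listed at 0; the list summed to 10.1 and 13.3 FPKM in control cells, 17.6 under siRNA-1 and 6.71 under siRNA-2. All 3 endothelial markers were listed at 0 in every library, and the 7 fibroblast markers summed to 0.798 and 0.684 FPKM in control cells, 4.498 under siRNA-1 and 2.34 under siRNA-2. COL1A1 made up almost all of that sum (0.717, 0.573, 4.22 and 2.23 FPKM in the same order), while COL1A2 was listed at 0 in every library. The authors' deposited table calls KRT18 lower (adjusted p = 0.0317) and COL1A1 higher (adjusted p = 0.00621). Neither was called in limma (adjusted p = 0.339 and 0.198). Scaling without the mitochondrially encoded genes left 1 member past the threshold, HMOX1 (log2 change -1.56, limma adjusted p = 0.0374). The part of the marker shifts in the results below was not tested.

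HMOX1 was the one member called lower in limma (adjusted p below 0.05 over 14068 tested genes), and it is also the one member called in the authors' deposited table. Of the 10 members 1 was thus called lower and 0 higher, where 0.171% of all tested genes were called lower and 0.0640% higher. The authors' deposited table calls 1.42% of its 14675 genes with an adjusted p lower and 2.71% higher. Both siRNA libraries lay below both controls for 7 of the 10 members (HMOX1, BLVRA, BLVRB, FTL, FTH1, FECH and TFRC), and above both for 0. Over all tested genes, 21.0% lay below both controls and 23.5% above both. The median log2 change of the members was -0.29, ranging from -1.59 to 0.10, beside a median of 0.001 over all tested genes. At an unadjusted limma p below 0.05, 4 members were lower (HMOX1, BLVRB, FTL and FTH1) and 0 higher, where 5.13% of all tested genes were lower and 7.07% higher. The members were chosen with earlier results of these data known, so these counts describe the list and do not set it apart. In bulk RNA, fewer cells of a type and less RNA per cell cannot be told apart.

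**Figure D1:**
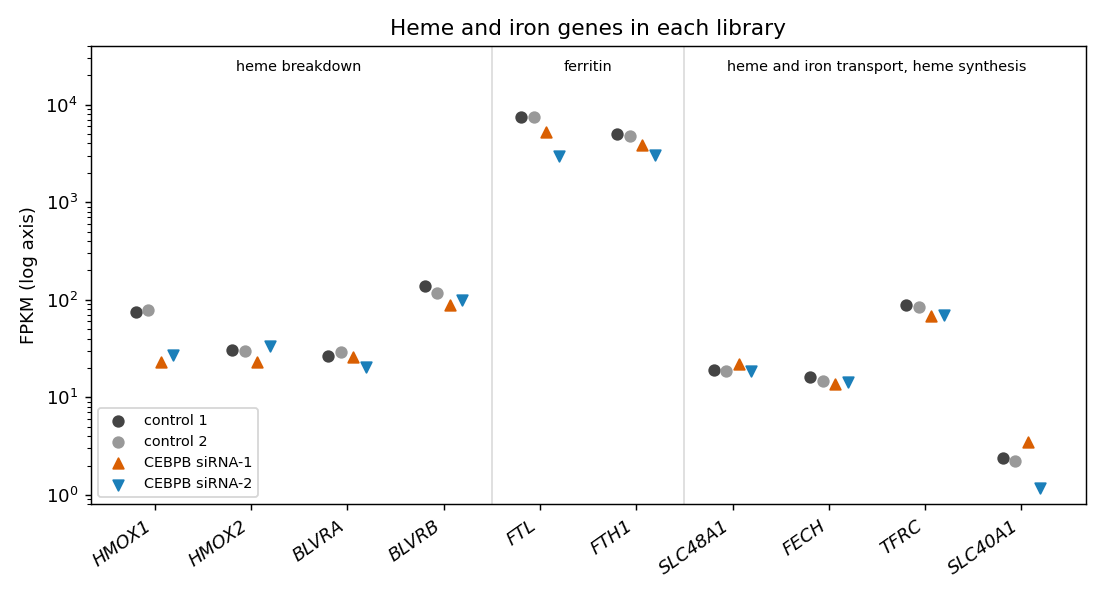
FPKM of each of the 10 genes (log axis) in control 1, control 2, siRNA-1 and siRNA-2, grouped by role; each point is 1 library. HMOX1 drops from 74.1 and 79.4 in the controls to 23.0 and 26.9, while the ferritin chains stand far above the other genes in every library.

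HMOX1 (ENSG00000100292.12) encodes heme oxygenase 1, the inducible enzyme that opens the heme ring. It stood at 74.1 and 79.4 FPKM in controls 1 and 2, against 23.0 under siRNA-1 and 26.9 under siRNA-2. The siRNA libraries lay close together and well under both controls, with a mean of 0.325 of the control mean. On the log2(FPKM + 1) scale the change was -1.59 ± 0.17 (SE, 2 libraries per group; 95% interval -2.0 to -1.17; limma adjusted p = 0.0469). The authors' deposited table gives a log2 fold change of -1.66 with an adjusted p of 2.07e-09, on a mean normalized count of 879. Without control 1 the log2 change was -1.64, and without control 2 it was -1.54. Without siRNA-1 it was -1.48, and without siRNA-2 it was -1.69. These fits leave 1 library in a group, so the spread of every gene comes from the other group alone. They are read for the size of the change only. The limma call was narrow. It was lost with a pseudocount of 0.1 (limma adjusted p = 0.0617), as TPM (0.0522) or without an intensity trend (0.082). A replicate block (0.0575) or no filter on low values (0.343) lost it too. The log2 change in these 5 fits was between -1.62 and -1.54. With no filter 0 genes were called in all, and CEBPB was not called either (limma adjusted p = 0.262).

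HMOX2 (ENSG00000103415.7) encodes the constitutive heme oxygenase, which carries out the same reaction. It was at 30.3 and 29.7 FPKM in control cells, 22.8 under siRNA-1 and 33.5 under siRNA-2. The controls were nearly equal and the siRNA libraries fell on opposite sides of them, so no common direction was seen. The log2 change was -0.11 ± 0.22 (95% interval -0.66 to 0.44; limma adjusted p = 0.888). FPKM is scaled by transcript length, so the paralogs can be set side by side: HMOX1 was 2.45 and 2.67 times HMOX2 in control cells, 1.01 times under siRNA-1 and 0.802 times under siRNA-2. The excess of HMOX1 over its paralog in control cells was thus absent in both siRNA libraries.

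The next step, biliverdin to bilirubin, is carried out by BLVRA, the main biliverdin reductase of adult tissue. BLVRB, biliverdin reductase B, is a separate enzyme that also reduces flavins, and its level is not read as a measure of that step. BLVRB (ENSG00000090013.5) was at 137 and 117 FPKM in control cells, 87.9 under siRNA-1 and 98.9 under siRNA-2. Its siRNA libraries lay below both controls, with a log2 change of -0.44 ± 0.17 (95% interval -0.85 to -0.02), which did not pass (limma adjusted p = 0.384). BLVRA (ENSG00000106605.6) was at 26.5 and 29.4 FPKM in control cells, 26.02 under siRNA-1 and 20.5 under siRNA-2. The siRNA-1 value nearly met the lower control, and the log2 change of -0.26 ± 0.19 (95% interval -0.73 to 0.21) did not pass either (limma adjusted p = 0.641). The authors' deposited table called neither, with log2 fold changes of -0.49 for BLVRB and -0.30 for BLVRA.

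The ferritin chains were among the most abundant transcripts of these cells, FTL ranking 7 and FTH1 ranking 10 of all genes by mean FPKM in the controls. FTL (ENSG00000087086.9), the light chain that promotes mineral formation, was at 7487 and 7482 FPKM in control cells, 5277 under siRNA-1 and 2992 under siRNA-2. The controls were almost identical, and siRNA-2 was much the lowest library. The log2 change was -0.91 ± 0.29 (95% interval -1.64 to -0.18), not past the threshold in limma (adjusted p = 0.311) or in the authors' deposited table (log2 fold change -0.87, adjusted p = 0.0812). It passed in limma where siRNA-1 and siRNA-2 were separate groups (adjusted p = 0.0339), a fit in which the difference between them does not count as spread. Without siRNA-1 the log2 change was -1.32 and without siRNA-2 it was -0.50.

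FTH1 (ENSG00000167996.11), the heavy chain that oxidizes ferrous iron, was at 5053 and 4829 FPKM in control cells, 3836 under siRNA-1 and 3024 under siRNA-2. The order of libraries was the same as for FTL, both siRNA values being below both controls. The log2 change was -0.54 ± 0.19 (95% interval -1.01 to -0.06; limma adjusted p = 0.353), and the authors' deposited table gives -0.45 (adjusted p = 0.502). Light chain stood at 1.48 and 1.55 times heavy chain in control cells, 1.38 times under siRNA-1 and 0.989 times under siRNA-2. Both chains together made up 2.44% and 2.33% of all FPKM in control cells, 1.84% under siRNA-1 and 1.20% under siRNA-2. These ratios and shares are given without a test and hold for FPKM only. The authors' mean normalized counts, which are not scaled by length, stood much farther apart, at 46994 for FTL and 9164 for FTH1.

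Ferritin values carry a limit, since both chains have processed pseudogenes, intron-free copies scattered over the genome. Reads were 76 bases long, so every run of 76 bases in the longest coding transcript of each member was looked up, letter for letter, in the transcripts of all other genes of GENCODE 29 (GRCh38). For FTH1, 350 of 1154 runs (30.3%) also occurred in another gene, and within its coding part 61.2% did. The 12 genes sharing them were all FTH1 pseudogenes. For FTL, 74 of 803 runs (9.22%) were shared, all with FTLP3. For the other 8 members the number was 0. Copies with a differing base, or outside annotated transcripts, were not searched for. A shared run of FTL is printed to show what a read from it cannot tell apart. It covers coding bases 22 to 97 in exon 1 (GRCh38, plus strand, chr19:48965529-48965604) and occurs unchanged in FTLP3.
FTL: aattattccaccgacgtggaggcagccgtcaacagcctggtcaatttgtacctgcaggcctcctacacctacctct

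The deposited values differ by kind where sequence is shared. The 25 rows named as FTH1 pseudogenes summed to 1699 and 1559 FPKM in control cells, 1156 under siRNA-1 and 1113 under siRNA-2, but their authors' mean normalized counts summed to 177. FTH1P10 alone averaged 286 FPKM on a mean normalized count of 1.21. FTH1 itself had 2.19 normalized counts per FPKM, while FTL had 8.09, although the FTH1 transcript is the longer one (1229 against 878 bases). The FTL pseudogene rows summed to 520 and 522 FPKM in control cells, 390 under siRNA-1 and 212 under siRNA-2. Both sets of pseudogene rows were lower in both siRNA libraries, as their parent genes were. Reads shared with a parent would make a row follow it, so neither this nor the sum with the parents is separate support. Adding these rows to their parents left the log2 changes at -0.53 for FTH1 and -0.91 for FTL, so the direction was the same with parent and copies summed.

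**Figure D2:**
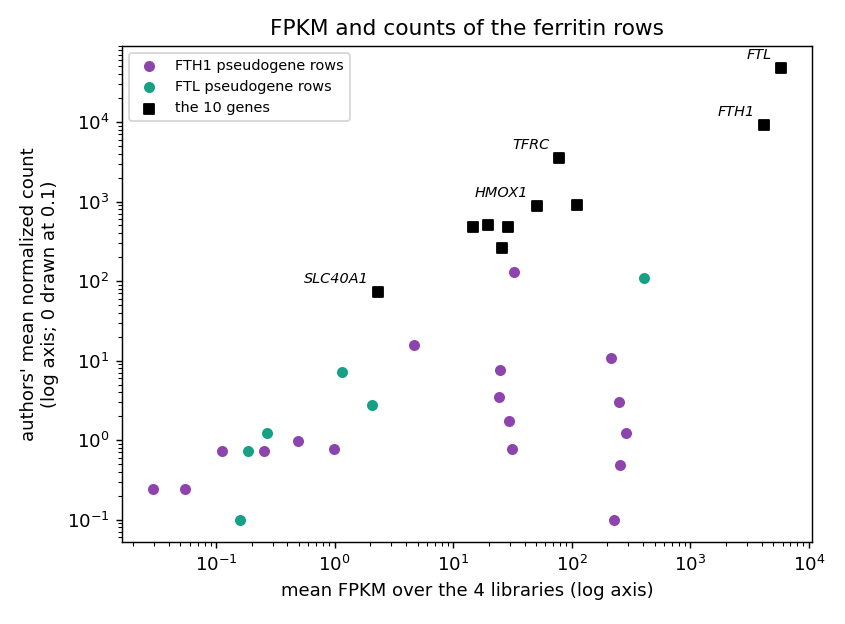
Mean FPKM over the 4 libraries (x, log axis) against the authors' mean normalized count (y, log axis, 0 drawn at 0.1) for the 10 genes (squares) and for the pseudogene rows of FTH1 and FTL (circles). FTH1P10 sits at 286 FPKM with a mean count of 1.21, and FTH1 lies at 9164 counts against 46994 for FTL.

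Among the transport and synthesis genes, none passed. TFRC (ENSG00000072274.8), the transferrin receptor that brings iron into the cell, was at 88.3 and 85.2 FPKM in control cells, 68.7 under siRNA-1 and 69.4 under siRNA-2. The siRNA libraries agreed closely and lay below both controls, but the log2 change of -0.32 ± 0.15 (95% interval -0.69 to 0.04) did not pass (limma adjusted p = 0.464). SLC40A1 (ENSG00000138449.6), the iron exporter ferroportin, was at 2.41 and 2.24 FPKM in control cells, 3.48 under siRNA-1 and 1.19 under siRNA-2. This is the lowest level of the 10 members, with a mean normalized count of 72.4, and the siRNA libraries fell on either side of the controls. Its log2 change was -0.09 ± 0.38 (95% interval -1.03 to 0.85).

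SLC48A1 (ENSG00000211584.9), which moves heme out of lysosomes and endosomes, was at 19.0 and 18.7 FPKM in control cells, 21.99 under siRNA-1 and 18.7 under siRNA-2. Its log2 change was 0.10 ± 0.17 (95% interval -0.33 to 0.53). FECH (ENSG00000066926.6), ferrochelatase, inserts iron into protoporphyrin in the last step of heme synthesis. It was at 16.1 and 14.7 FPKM in control cells, 13.8 under siRNA-1 and 14.5 under siRNA-2, below both controls by a margin within their spread. The log2 change was -0.12 ± 0.17 (95% interval -0.54 to 0.31). The lower end of the FECH interval reaches the change measured for FTH1, so FECH is not shown to be unaffected.

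**Figure D3:**
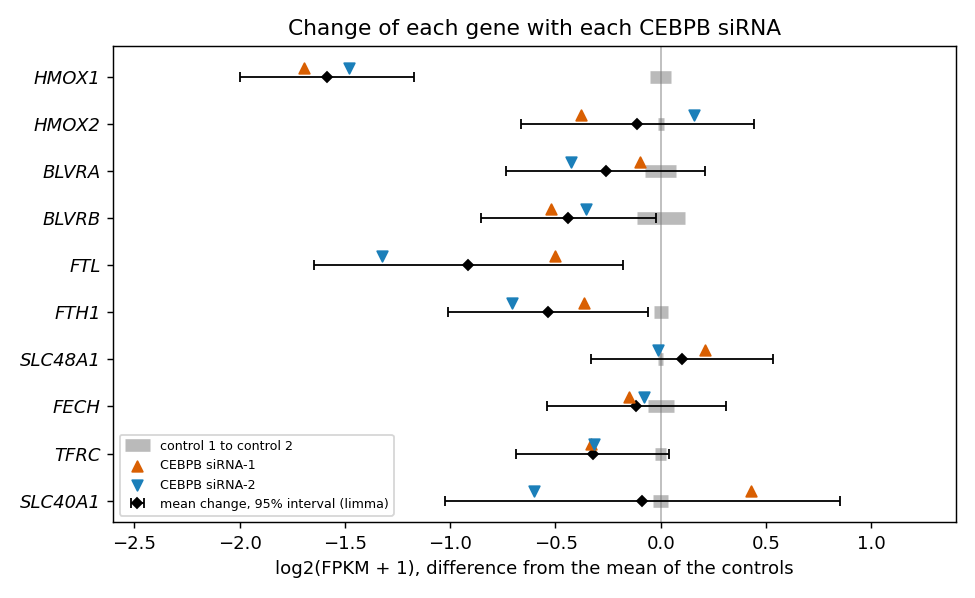
Difference from the control mean on the log2(FPKM + 1) scale for each gene: triangles are the siRNA libraries, the grey bar spans the controls, and the diamond and line are the mean change and its 95% limma interval. HMOX1 is near -1.59 with both siRNAs, FTL separates into -0.50 and -1.32, and HMOX2 and SLC40A1 have a siRNA library on each side of 0.

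The siRNAs were compared in a limma fit with 3 groups, in which the spread comes from the controls, moderated across genes. Of the 10 members 0 differed between siRNA-1 and siRNA-2 at an adjusted p below 0.05, where 0.441% of all tested genes did. At an unadjusted p below 0.05, 3 members differed (HMOX2, FTL and SLC40A1), beside 22.4% of all tested genes. FTL was higher with siRNA-1 than with siRNA-2 by 0.82 ± 0.20 on the log2 scale (95% interval 0.29 to 1.35; limma adjusted p = 0.117). For HMOX1 the difference was -0.21 ± 0.16 (95% interval -0.62 to 0.19; limma adjusted p = 0.471). The siRNA-2 library, with the lowest FTL, also had the lowest mitochondrially encoded share. Scaled without the mitochondrially encoded genes, the log2 change of FTL between knockdown and control was -0.89 (limma adjusted p = 0.342), beside -0.91 in the main fit. That is another comparison: the difference between siRNA-1 and siRNA-2 was not fitted under this scaling. A link between it and the mitochondrially encoded share was not tested.

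Around these 10 genes, 82 further heme and iron genes from 6 lists had a row and 71 were tested. In limma 0 were called higher and 0 lower, where 0.0640% and 0.171% of all tested genes were. At an unadjusted limma p below 0.05, 7 were higher and 16 lower, where 7.07% and 5.13% of all tested genes were. The authors' deposited table calls 1 higher and 8 lower of 72 with an adjusted p, where it calls 2.71% and 1.42% of all genes. Both siRNA libraries lay below both controls for 32 (45.1%) and above both for 12 (16.9%), beside 21.0% and 23.5% over all tested genes. The median log2 change was -0.21. The lists were written with earlier results known, so these counts are a description.

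Most of the authors' calls fell in 2 lists. For iron uptake and handling (16 tested, median -0.17), the authors' deposited table calls 1 gene higher and 4 lower of 17 with an adjusted p, beside 2.71% and 1.42% of all genes. STEAP1, of the metalloreductase family, was at 66.5 and 64.7 FPKM in control cells, 7.87 under siRNA-1 and 25.7 under siRNA-2 (authors' deposited table: log2 fold change -2.03, adjusted p = 0.000314). STEAP2, an iron and copper reductase of the same family, was at 25.8 and 18.7 FPKM against 5.79 and 12.04 (-1.43 in the authors' deposited table). In both, siRNA-1 gave much the lower value (siRNA-1 minus siRNA-2 was -1.59 for STEAP1 and -0.94 for STEAP2 on the log2 scale). LCN2, lipocalin 2, which binds iron-carrying siderophores, was at 69.4 and 64.3 FPKM against 24.3 and 27.0 (-1.36 in the authors' deposited table), a pattern that was even between siRNAs. TF, the plasma iron carrier transferrin, was below the limit for testing in limma, at 0.967 and 1.11 FPKM against 0.137 and 0.0995. The authors' deposited table calls it lower (log2 fold change -3.24, adjusted p = 0.0276) on a mean normalized count of 15.3. MFI2, melanotransferrin, was the one gene called higher, at 6.41 and 5.43 FPKM in control cells, 17.4 under siRNA-1 and 11.4 under siRNA-2 (1.39 in the authors' deposited table). In limma the adjusted p-values of STEAP1, STEAP2, LCN2 and MFI2 were 0.202, 0.253, 0.0691 and 0.182.

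For iron regulation (13 tested, median -0.39), 8 (61.5%) had both siRNA libraries below both controls, beside 21.0% of all tested genes. The authors' deposited table calls 3 lower of 14 with an adjusted p, beside 1.42% of all genes. BMP6, the ligand that induces hepcidin, was at 8.43 and 9.59 FPKM in control cells, 1.93 under siRNA-1 and 2.26 under siRNA-2 (-2.09 in the authors' deposited table). HIF1A, a hypoxia-inducible factor subunit, was at 191 and 201 FPKM against 92.3 and 97.7 (-1.09 in the authors' deposited table). Its paralog EPAS1 was at 168 and 152 FPKM against 27.9 and 80.4 (-1.52 in the authors' deposited table). In limma the changes of BMP6, HIF1A and EPAS1 were -1.69 ± 0.20, -1.04 ± 0.15 and -1.73 ± 0.47, with adjusted p-values of 0.0745, 0.0983 and 0.252. The direct regulators of HMOX1 and ferritin were examined by name after their values were seen. NFE2L2, the NRF2 gene, stood at 37.9 and 35.6 FPKM against 28.2 and 26.6, with a log2 change of -0.41 ± 0.16 (limma adjusted p = 0.384). BACH1, the repressor, was at 4.27 and 3.29 FPKM against 4.0 and 3.65, with a log2 change of 0.02 ± 0.22. KEAP1, which marks NRF2 for degradation, was at 29.4 and 25.8 FPKM against 19.2 and 22.6 (-0.39 ± 0.18). MAFK, a small MAF partner of NRF2 and BACH1, was at 99.8 and 84.4 FPKM in control cells, 38.7 under siRNA-1 and 77.7 under siRNA-2 (-0.73 ± 0.34). Its relatives MAFG and MAFF had log2 changes of -0.30 ± 0.22 and 0.32 ± 0.27, and the iron regulatory proteins ACO1 and IREB2 had -0.43 ± 0.19 and 0.27 ± 0.15. None of these regulators passed in the main limma fit or in the authors' deposited table. Both siRNA libraries lay below both controls for NFE2L2, KEAP1, MAFG, MAFK and ACO1, and above both for IREB2. BACH1 and MAFF overlapped the controls. Over all tested genes, 21.0% lay below both controls and 23.5% above both.

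In the list of iron export and oxidation only CP, ceruloplasmin, a ferroxidase that works with ferroportin, was tested. It was at 48.9 and 41.8 FPKM in control cells, 2.41 under siRNA-1 and 7.44 under siRNA-2, with a limma log2 change of -3.11 ± 0.43 (adjusted p = 0.0926) and -2.84 in the authors' deposited table (adjusted p = 1.05e-18). HEPH and HEPHL1, the other ferroxidases, were listed at 0 in every library. The remaining lists had 0 calls in either table. In heme synthesis (10 tested, median -0.07), ALAS1, the first and rate-limiting enzyme, had the smallest p. It was at 41.6 and 38.1 FPKM against 28.4 and 23.7, a log2 change of -0.60 ± 0.17 (limma adjusted p = 0.276). In heme transport and binding (11 tested, median -0.30), the smallest p was that of ABCB10, a mitochondrial inner membrane transporter, at 4.55 and 4.89 FPKM against 8.74 and 7.88 (0.70 ± 0.19; limma adjusted p = 0.250). Among genes of mitochondrial iron and iron-sulfur clusters (20 tested, median -0.11), FDX1, a ferredoxin, came first, at 5.57 and 6.21 FPKM against 2.40 and 3.61 (-0.80 ± 0.24; limma adjusted p = 0.280).

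**Figure D4:**
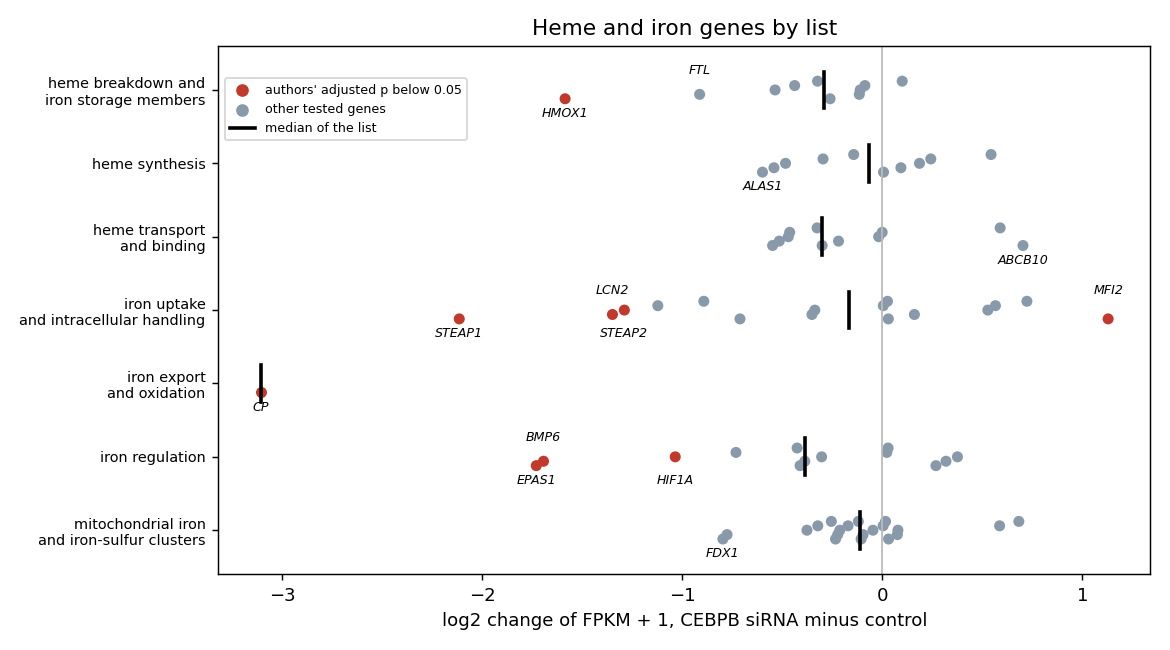
Log2 change (limma, FPKM + 1, CEBPB siRNA minus control) of each tested gene by list; red points have an adjusted p below 0.05 in the authors' deposited table and black bars are list medians. The red points are HMOX1, STEAP1, STEAP2, LCN2, MFI2, CP, EPAS1, BMP6 and HIF1A; TF is not drawn because it was not tested in limma.

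The genes whose values moved most like HMOX1 were found by the root-mean-square distance between log2 profiles over the 4 libraries, each centred on its control mean, among 9510 other genes averaging at least 5 FPKM. The 5 nearest were NR2F2 (distance 0.0479), GPX2 (0.0608), BMP6 (0.0829), SNAP25 (0.102) and SGK1 (0.11). NR2F2, a nuclear receptor, was at 34.7 and 38.2 FPKM in control cells, 11.2 under siRNA-1 and 12.99 under siRNA-2. GPX2, a glutathione peroxidase, was at 245 and 277 FPKM against 79.3 and 86.0. With 4 libraries, any gene that drops by the same amount with both siRNAs comes close, so this is a description of levels.

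Promoter windows (250 bases before to 50 after the start, from RefSeq on GRCh38.p14) were found for 8 members in 9 windows; HMOX1 and FTH1 had no entry. They were searched on both strands for the antioxidant response element core TGACNNNGC, bound by NRF2 with small MAF proteins, and for the C/EBP core TTGCNNAA. The motifs were counted separately, whether or not they overlapped. The first occurred in 1 of 9 windows, that of FECH, and in 13.3% of all 35116 windows. The second occurred in 0 of 9, and in 10.5% of all. The FECH match lies 38 to 30 bases before the start, in chr18:57586712-57586760 (GRCh38.p14, minus strand), with the match in capitals, which reads as the core on the opposite strand. FTL is printed as the member with an entry that was lowest relative to the controls, over the 250 bases before its start at chr19:48965059-48965308 (GRCh38.p14, plus strand). A match is a description of letters in this window, and sites farther away were not searched.
FECH: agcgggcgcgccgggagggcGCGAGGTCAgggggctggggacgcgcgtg
FTL: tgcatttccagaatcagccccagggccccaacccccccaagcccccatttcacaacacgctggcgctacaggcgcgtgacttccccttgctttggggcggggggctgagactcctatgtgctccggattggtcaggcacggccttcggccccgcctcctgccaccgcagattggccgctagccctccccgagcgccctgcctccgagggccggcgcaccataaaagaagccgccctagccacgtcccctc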

How the data were processed

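RNA was measured in 4 libraries of 76-base single-end, strand-specific reads, per the labels' protocols. Per the submitters' processing notes, the tools were STAR 2.7.0d, StringTie 2.1.4, HTSeq 0.13.5 and DESeq2 1.26.0 with build hg19, with no role given. The per-library values were taken as FPKM made by the authors: the deposited headers do not name the unit, and the columns sum to 494066 to 528606, which TPM would not. The other deposited columns are a DESeq2 table: the signal column is the authors' mean normalized count, the log2 columns the authors' log2 fold change and its SE, the score the authors' test statistic, and the rest their p-value before and after adjustment. These were quoted, not recomputed. Counts per library were not used here, so depth is known only as the mean count.

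Since the values are FPKM, log2(FPKM + 1) was fitted in R 4.3.3 by limma 3.58.1 (variance trended on intensity) over the 14068 genes averaging at least 1 FPKM, without a block. P-values were adjusted by Benjamini and Hochberg's method and called at 0.05. Residual degrees of freedom were 2 and prior ones 3.61, with siRNA-1 and siRNA-2 as replicates of a knockdown. A second fit with 3 groups compared siRNA-1 with siRNA-2 on 1 residual degree of freedom, taking the spread of the controls for both. The scale understates changes of low genes. The fit was run on simulated data with the same change in both siRNA libraries. Its outcome is not given here, and differences between the siRNAs were not simulated. The members, lists and alternatives were chosen with earlier results of these data known. Named were the members, CEBPB, list genes called in limma or by the authors (or else with the smallest limma p), and the 5 profiles nearest HMOX1. The regulators of HMOX1 and ferritin (NFE2L2, BACH1, KEAP1, MAFK, MAFG, MAFF, ACO1 and IREB2) and the ferroxidases HEPH and HEPHL1 were named outside this rule, after their values were seen. Alternatives were other pseudocounts, filters, scalings, designs, left-out libraries and the authors' comparison. Some marker genes and 1 sequence are not reported here.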

Additional observations from a re-analysis of the deposited data

Results flagged for a closer look

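For 3 members the siRNA libraries lay on opposite sides of both controls. On the log2(FPKM + 1) scale, siRNA-1 minus siRNA-2 was -0.534 for HMOX2 (limma adjusted p = 0.156 in the fit with 3 groups), 0.226 for SLC48A1 (adjusted p = 0.484) and 1.03 for SLC40A1 (adjusted p = 0.116). None passed. For SLC48A1, siRNA-2 (18.66 FPKM) was barely under the lower control (18.68 FPKM).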

How the results depend on the processing

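HMOX1 kept its direction under every alternative run, but the count of members past the threshold moved from 1 to 0 with a pseudocount of 0.1, no filter, TPM, a replicate block or no trend, and to 2 (HMOX1 and FTL) in the fit with 3 groups; leaving out 1 library gave 0 to 1, with 0 without control 1 or without control 2. The count of further heme and iron genes moved from 0 to 11 in the fit with 3 groups and to 9 in the authors' deposited comparison, and leaving out 1 library gave 0 to 15, with 3 without siRNA-1 and 15 without siRNA-2. Over all genes the count was 33 in the main fit, 0 with no filter or without either control, 25 with the replicate block, 971 in the fit with 3 groups, 72 without siRNA-1 and 1764 without siRNA-2. Between the siRNAs the count of members moved from 0 to 1 (FTL) with a minimum of 5 FPKM, where fewer genes were tested. With 1 library left out, the spread of every gene comes from the other group alone, so those counts depend on which group was cut. Leaving out 1 library reversed HMOX2 (-0.378 to 0.156), SLC48A1 (-0.014 to 0.212) and SLC40A1 (-0.604 to 0.429). The library numbers were not taken as pairs. Deviations of same-numbered libraries correlated at 0.0754. In the siRNA libraries the number is also the siRNA, so this value cannot show whether a batch was shared. With the replicate block, which has the same limit, HMOX1 had a log2 change of -1.59 (limma adjusted p = 0.0575). The cause of the shifts between alternatives was not tested. No scaling moved the median of all genes by over 0.1.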
